A study of Mus musculus with 4 samples.

Results

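Accessibility near 10 genes of the lipid- and steroid-sensing nuclear receptor system was read out by ATAC-seq, a method that cuts and tags open chromatin with a transposase. The genes were the receptors Pparg, Ppard, Rxra, Rara, Vdr and Nr3c1, the coactivators Ppargc1a and Ppargc1b, and the glucocorticoid-induced genes Tsc22d3 and Fkbp5. Members were the regions whose nearest gene, as named in the deposited tables, is one of these. The rule found 67 of 80929 regions, from 2 for Vdr to 10 for Rxra, and so 10 of 26614 gene names. No accessibility value entered the choice of genes by this rule, but the genes were proposed with earlier results of these data known.

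The cells were RAW264.7, an established mouse macrophage-like line, seeded at 1000000 per well in 12-well plates and cultured for 48 h after treatment. Titles assign 2 libraries to Gel, a hydrogel, and 2 to CuNZ@Gel, for which the series title speaks of a nanozyme hydrogel. The treatment text names CuNZ@Gel for every sample, which leaves the treatment of the Gel cells unclear, and groups follow the titles. Whether replicates were separate cultures is not stated, so the p-values reflect how far these libraries vary, possibly for technical reasons alone. No untreated cells are among the 4 libraries.

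Reads in regions were 18843518 and 17915283 in the Gel libraries and 7440951 and 10236688 in the CuNZ@Gel libraries. Depth here means this count, and it moved with the treatment. Reads outside regions are not in the values used, so total sequencing depth is unknown. All 10 macrophage markers examined (among them Csf1r, Adgre1 and Spi1) had regions, with summed levels of 1054 to 1326 RPM. Here RPM is reads in a region per 1000000 effective reads (reads in regions times the authors' scaling factor). Of these macrophage markers 6 were lower and 1 higher in CuNZ@Gel, where 36.1% of all tested genes were lower and 20.5% higher. For 7 other cell types, 22 of 28 markers had a region (not Cd3g, Cd79a, Col1a2, Dcn, Krt5 and Alb), of which 8 were higher and 3 lower in CuNZ@Gel. The summed level of a list ranged from 8.16 RPM for B cells to 107 RPM for hepatocytes. The hepatocyte list summed to 61.2 and 66.6 RPM in Gel and 105 and 107 RPM in CuNZ@Gel. The part of depth and of other cells' markers in the results below was not tested.

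Nuclear receptors are transcription factors switched by small lipophilic ligands. PPARs (fatty acids), RARs (retinoic acid) and the vitamin D receptor bind DNA as heterodimers with an RXR, on pairs of AGGTCA-like hexamers. The glucocorticoid receptor, encoded by Nr3c1, is held in the cytoplasm by heat-shock chaperones until hormone binds, then acts on palindromic elements and tethers to inflammatory factors. In macrophages these receptors are known for restraining inflammatory genes and for guiding lipid handling.

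In CuNZ@Gel, the summed accessibility near Tsc22d3 was lower under each of the scalings tried. Single weak regions near Ppard, Rxra and Fkbp5 were higher under each of them, by 2.04, 1.57 and 1.71 on the deposited scale. However, these became regions only through peaks called in CuNZ@Gel libraries, a choice that favours a rise there. Fits with 1 library left out kept the same regions, so they could not check this. Of the 67 member regions, 63 passed the filter on low values (at least 0.710 RPM, the value of 10 reads at the median depth, in at least 2 libraries). The remaining 4, Ppargc1a regions 1, 5 and 6 and Fkbp5 region 6, had at most 15 reads in any library. With limma (adjusted p under 0.05, adjusted over all 77212 tested regions), 12 of the 63 regions were higher and 16 lower in CuNZ@Gel, and 35 were not called. The share called was 44.4% against 42.9% of all tested regions. Higher calls made up 19.0% against 21.1%, and lower calls 25.4% against 21.8%, so the members were called about as often as regions in general.

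The median change of the 63 regions was 0.08 on the log2(RPM + 1) scale, against -0.00 for all tested regions. Every change given is the CuNZ@Gel mean less the Gel mean in these units, and for weak regions it is smaller than the true log ratio. Groups did not overlap in 42 of the 63 regions, which is 66.7% against 68.2% of all tested regions. Among the 28 called regions none had overlapping groups, and 21 of the 35 uncalled ones had.

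**Figure D1:**
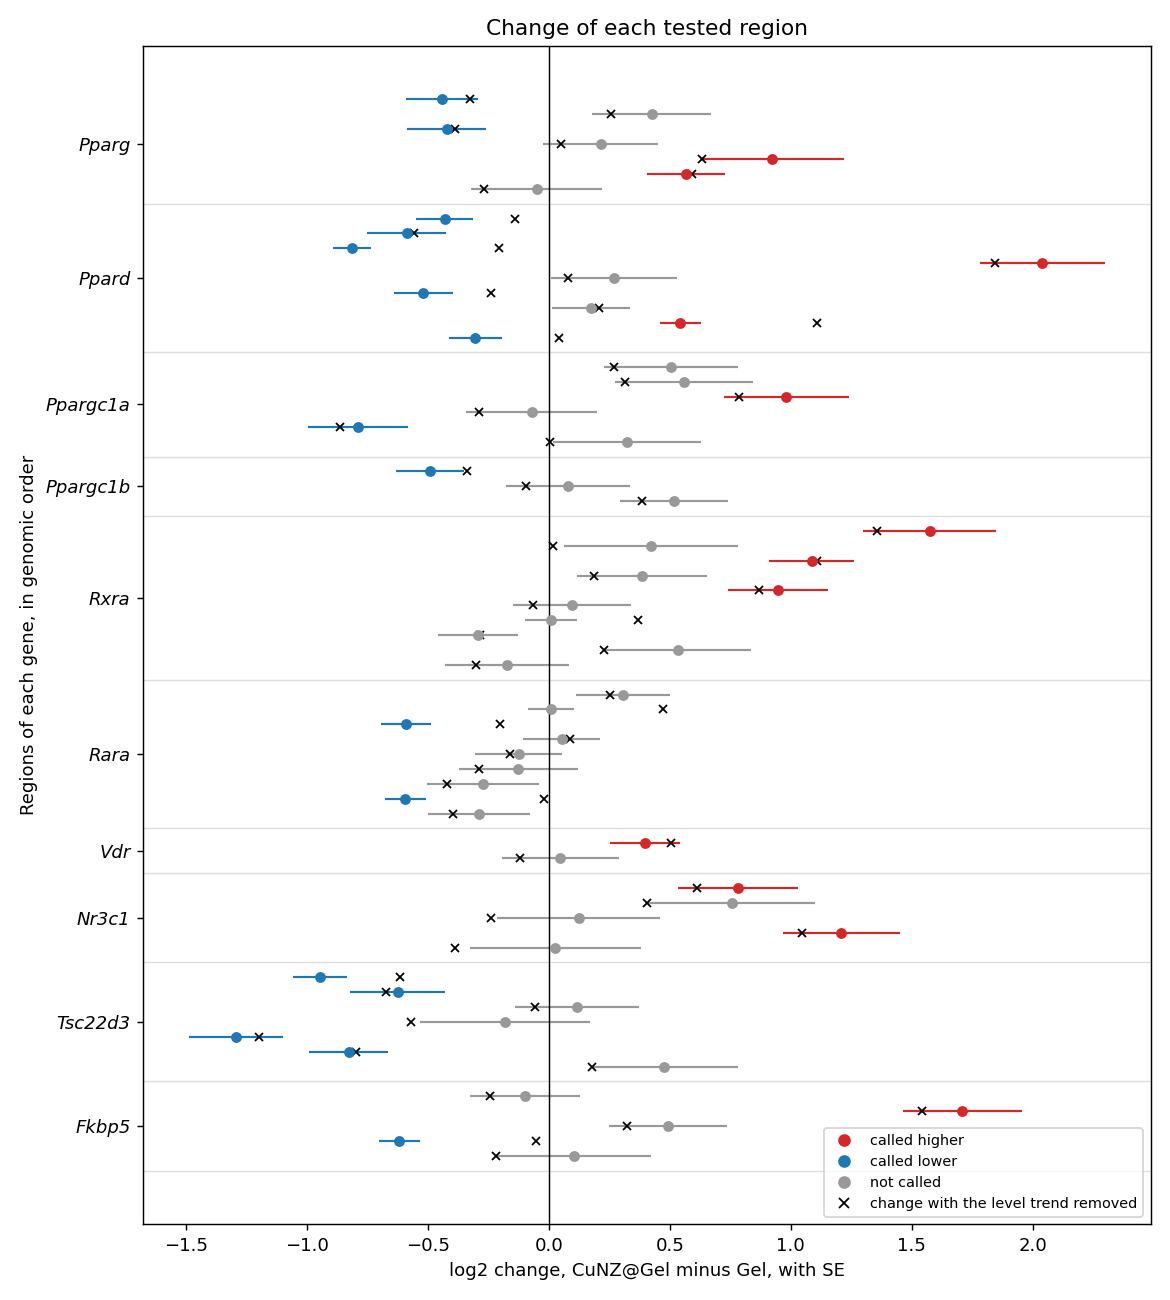
Change of each of the 63 tested regions (x axis, log2 change of CuNZ@Gel minus Gel, bars 1 SE), grouped by gene and in genomic order from top to bottom; crosses mark the change once the trend with level was removed. Called regions of Ppargc1b, Rara and Tsc22d3 lie only left of 0, those of Rxra, Vdr and Nr3c1 only right of 0, and those of Pparg, Ppard, Ppargc1a and Fkbp5 on both sides.

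Direction went with level. Regions called higher averaged 1.74 to 59.0 RPM (median 4.15), and regions called lower 7.03 to 68.5 RPM (median 20.4). Lower regions were also wider, with a median of 944.5 bases against 458 for higher ones. The same trend ran through all tested regions, whose median change went from 0.34 in the weakest 10% to -0.60 in the strongest 10%. In that strongest group 86.8% of regions were called lower and 2.91% higher. Of the 11 member regions averaging at least 20 RPM, 8 were lower and 1, Ppard region 8, was higher, against 73.8% lower and 7.05% higher among all 14254 tested regions of that level. Each direction is therefore also given after cyclic loess scaling, which removes this trend between libraries, and is then called the trend-removed change. With the trend removed 13 member regions were higher (background 18.7%) and 7 lower (background 13.8%). Of the regions called with the deposited scaling, 11 of 12 higher ones and 7 of 16 lower ones kept their call.

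A further scaling sets the median of all regions itself. When libraries were scaled to the background read density implied by the deposited peak folds, the median over all tested regions moved to -0.81 and that of the members to -0.73. On that scale 36 member regions were lower and 3 higher, against a background of 60.5% and 4.83%. The 3 higher regions were Ppard region 4, Rxra region 1 and Fkbp5 region 2, each with peaks in CuNZ@Gel libraries only. Which scaling holds for these libraries cannot be told from the files, since depth and background differed between the groups.

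**Figure D2:**
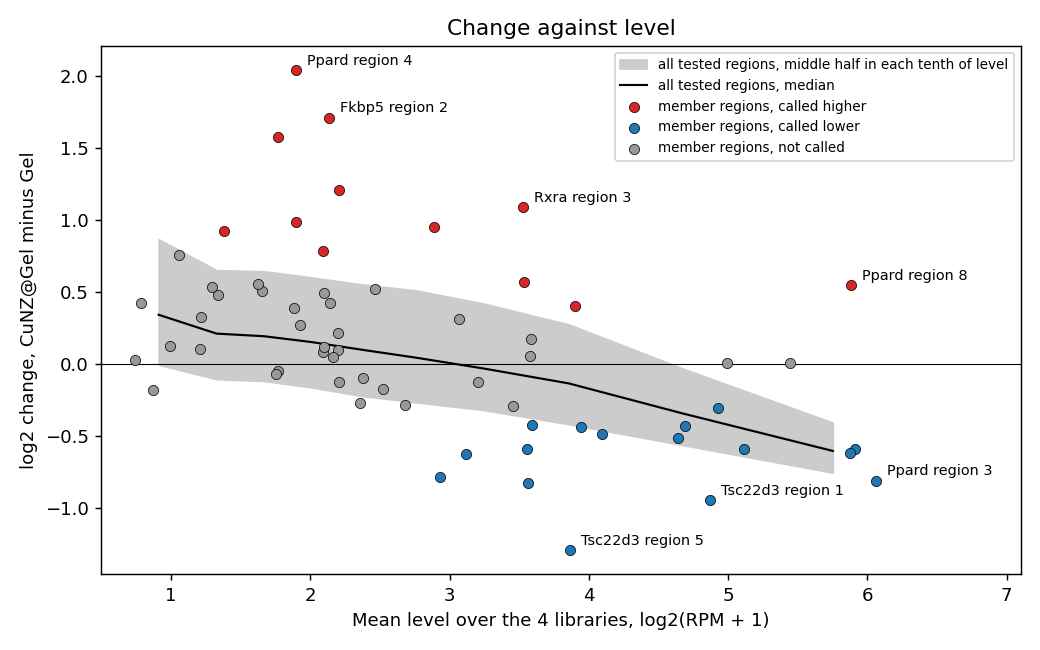
Change of each tested member region (y axis, log2 change of CuNZ@Gel minus Gel) against its mean level (x axis, log2(RPM + 1) over the 4 libraries); the line is the median of all tested regions in 10 equal groups by level and the grey band their middle 50%. The all-region median falls from 0.34 to -0.60; Ppard region 8 lies above the band at high level and Tsc22d3 regions 1 and 5 below it.

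Summed over its regions, each member gene was also tested with limma over 25932 genes. Rxra, Vdr and Nr3c1 were higher (3 of 10, background 20.5%), and Ppard, Rara, Tsc22d3 and Fkbp5 lower (4 of 10, background 36.1%). Pparg, Ppargc1a and Ppargc1b did not pass. With the trend removed 4 were higher (Ppard, Rxra, Vdr and Nr3c1, background 20.7%) and only Tsc22d3 was lower (background 15.5%). With total reads in regions as the scale, 22 regions were higher (background 29.9%) and 8 lower (background 11.9%), and 5 gene sums were higher (background 34.3%) and 1 lower (background 18.7%). On the background scale none was higher and 9 were lower, against 2.76% and 75.4% of genes; at an unadjusted p under 0.05 there was also none higher. The median gene change was -0.11, against -0.10 for all tested genes. Sums depend on how many regions a gene has and how wide they are, so they are compared between libraries and not between genes. Groups did not overlap in 8 of the 10 genes, against 76.8% of all genes; Pparg and Ppargc1b overlapped.

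**Figure D3:**
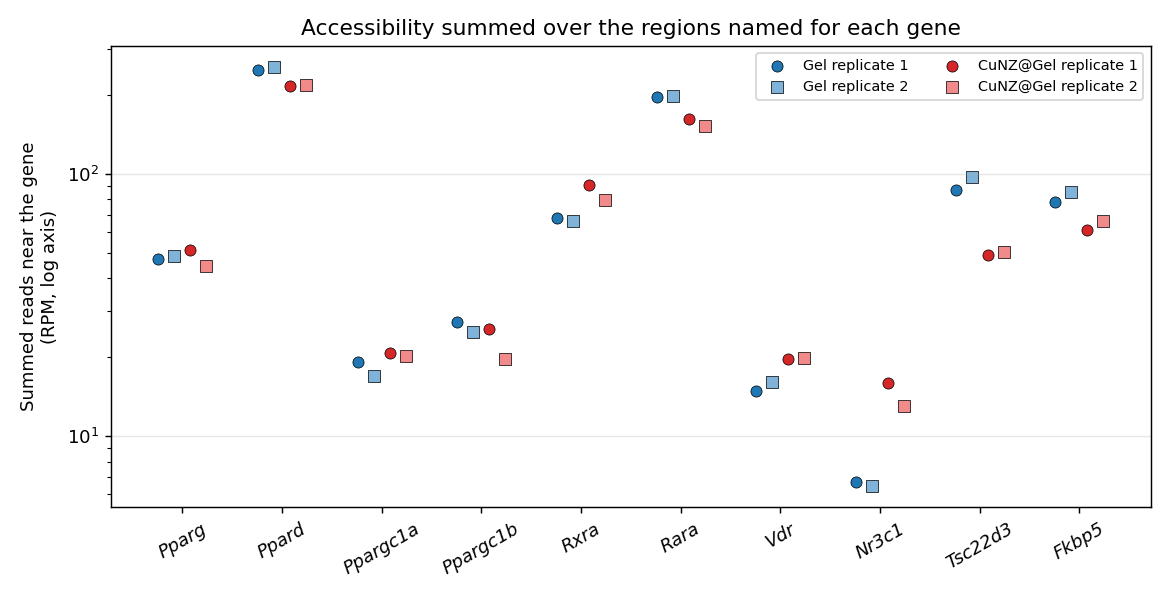
Summed accessibility of each member gene (y axis, RPM on a log axis) in the 4 libraries, circles for replicate 1 and squares for replicate 2, blue for Gel and red for CuNZ@Gel. The CuNZ@Gel points lie below the Gel points for Ppard, Rara, Tsc22d3 and Fkbp5 and above them for Ppargc1a, Rxra, Vdr and Nr3c1.

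Tsc22d3 encodes GILZ, a glucocorticoid-induced leucine zipper protein that restrains NF-κB and AP-1. Its 7 regions on chromosome X summed to 86.7 and 97.1 RPM in Gel and to 49.1 and 50.3 RPM in CuNZ@Gel. Both CuNZ@Gel libraries lay well below both Gel libraries. The sum fell by 0.87 ± 0.08 (SE, n = 2 against 2 libraries, limma adjusted p = 1.03e-08). It stayed lower with the trend removed (-0.74, adjusted p = 1.68e-08), scaled to total reads in regions (-0.59, adjusted p = 1.5e-06) and scaled to background (-1.91, adjusted p = 1.34e-10).

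Of its 7 regions, 4 were lower and none higher, and all 4 kept the call with the trend removed. The strongest, region 1 (chrX:139443177-139444276, GRCm39, as are all region coordinates here), had 39.3 and 40.0 RPM in Gel and 21.2 and 19.0 RPM in CuNZ@Gel. Behind these values stood 674, 646, 175 and 214 reads. It fell by 0.95 ± 0.11 (adjusted p = 7.19e-10; trend-removed change -0.61).

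Region 5 (chrX:139499720-139500502) had the largest fall of any member region. Its levels were 17.7 and 26.9 RPM in Gel and 5.33 and 12.7 RPM in CuNZ@Gel. The libraries were spread widely within each group but the groups did not overlap. The change was -1.29 ± 0.19 (adjusted p = 2.21e-07; trend-removed -1.20), and it was -0.74 without CuNZ@Gel replicate 1, in which no peak was called there.

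Next to it, region 6 (chrX:139501218-139502196; chosen after its values were seen) had 14.8 RPM in each Gel library and 9.09 and 6.84 RPM in CuNZ@Gel. It fell by 0.83 ± 0.16 (adjusted p = 3.97e-05; trend-removed -0.80). Region 2 also fell, by 0.62 ± 0.20 (adjusted p = 0.00802). That call was lost without Gel replicate 2 (-0.49, adjusted p = 0.166) and without CuNZ@Gel replicate 2 (-0.28, adjusted p = 0.243). Regions 3, 4 and 7, each at most 4.80 RPM, had changes of -0.18 to 0.48 and did not pass.

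Fkbp5 encodes an immunophilin that binds the chaperone complex of the glucocorticoid receptor and lowers its affinity for hormone, and it is itself a glucocorticoid target. Its 6 regions on chromosome 17 summed to 78.4 and 85.3 RPM in Gel and to 61.2 and 66.4 RPM in CuNZ@Gel. The groups did not overlap. The sum fell by 0.35 ± 0.07 (adjusted p = 0.000405), but with the trend removed the change was 0.058 (adjusted p = 0.571) and scaled to total reads -0.07 (adjusted p = 0.426). On the background scale the sum was lower, at -1.40 (adjusted p = 1.22e-06).

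Region 4 (chr17:28704523-28705705) held 87.9% of the Gel signal, with 68.3 and 75.5 RPM in Gel and 44.5 and 48.5 RPM in CuNZ@Gel. It fell by 0.62 ± 0.09 (adjusted p = 4e-08), while its trend-removed change was -0.05 (adjusted p = 0.666). Its fall was thus of the size seen in other regions of that level.

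Region 2 (chr17:28690742-28691183) went the other way. It had 1.57 and 1.30 RPM in Gel and 5.82 and 8.27 RPM in CuNZ@Gel, from 27, 21, 48 and 93 reads. With fewer reads in all regions but a higher background density, both CuNZ@Gel libraries exceeded both Gel libraries in this region, in RPM and reads. It rose by 1.71 ± 0.25 (adjusted p = 8.81e-08), with a trend-removed change of 1.54 and a background-scaled change of 0.93 (adjusted p = 0.00228). A peak was called there in CuNZ@Gel replicate 2 alone, with a deposited fold of 5.17. Region 3 had peaks in both Gel libraries and in neither CuNZ@Gel library, yet its levels were 2.68 and 2.54 RPM in Gel and 4.37 and 3.82 RPM in CuNZ@Gel (change 0.49 ± 0.24, adjusted p = 0.0994). Peak calls and levels therefore pointed in different directions at that region. Regions 1 and 5 had changes of -0.10 and 0.10 and did not pass.

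**Figure D4:**
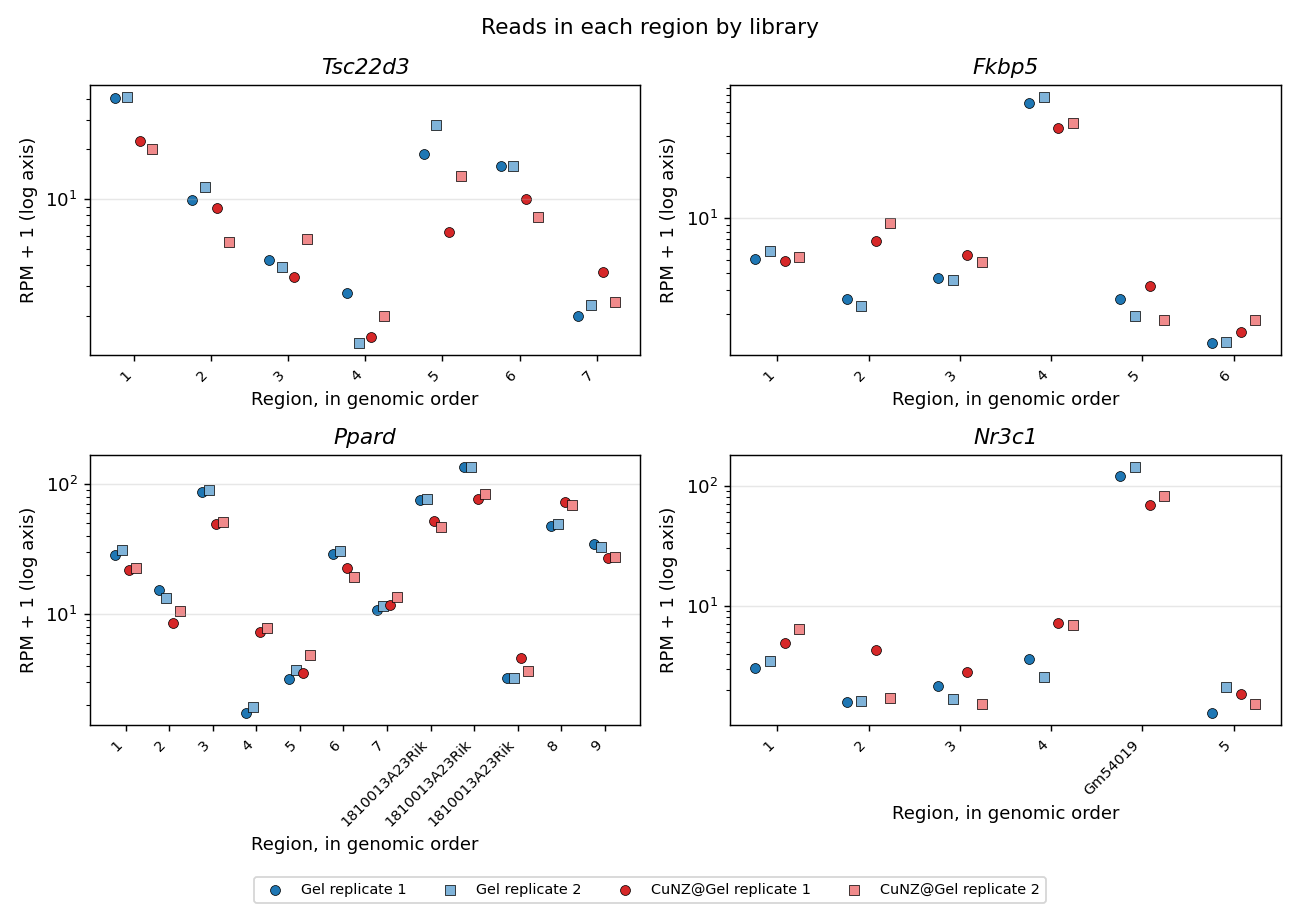
Level of each region (y axis, RPM + 1 on a log axis) in genomic order (x axis) for Tsc22d3, Fkbp5, Ppard and Nr3c1, including regions of other names that lie between the first and last region of the gene. At Tsc22d3 regions 1, 2, 5 and 6 the red CuNZ@Gel points lie below the blue Gel points; at Ppard regions 4 and 8 and Fkbp5 region 2 they lie above; Gm54019 exceeds every Nr3c1 region in each library.

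Nr3c1, the gene of the receptor itself, had 5 weak regions over 73.3 kb of chromosome 18. They summed to 6.71 and 6.44 RPM in Gel and to 16.0 and 13.1 RPM in CuNZ@Gel. Both CuNZ@Gel sums lay above both Gel sums. The sum rose by 1.03 ± 0.17 (adjusted p = 2.74e-05; trend-removed 0.68, adjusted p = 0.00206), but on the background scale the change was 0.07 (adjusted p = 0.791).

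Region 4 (chr18:39616695-39617106) had 2.63 and 1.55 RPM in Gel and 6.19 and 5.86 RPM in CuNZ@Gel, from 45, 25, 51 and 66 reads. The groups did not overlap. It rose by 1.21 ± 0.24 (adjusted p = 4.47e-05), with a background-scaled change of 0.40 (adjusted p = 0.203). Region 1 (chr18:39579736-39580024; chosen after its values were seen) had 2.04 and 2.47 RPM in Gel and 3.88 and 5.42 RPM in CuNZ@Gel and rose by 0.78 ± 0.25 (adjusted p = 0.00827). That call was lost without Gel replicate 1 (0.69, adjusted p = 0.105) or CuNZ@Gel replicate 2 (0.59, adjusted p = 0.108), and on the background scale the change was -0.011. Regions 2, 3 and 5 were at or below 3.28 RPM in each library, their changes ran from 0.03 to 0.76, and none passed.

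The strongest region of this stretch carries another name. Gm54019 (chr18:39622194-39625000) lies between Nr3c1 regions 4 and 5 and had 118 and 142 RPM in Gel and 67.5 and 80.2 RPM in CuNZ@Gel. It fell by 0.81 ± 0.08 (adjusted p = 1.82e-12; trend-removed -0.07, adjusted p = 0.484). With this region added, an alternative chosen after seeing the data, the Nr3c1 sum became 125 and 148 RPM in Gel and 83.6 and 93.3 RPM in CuNZ@Gel. Its change turned to -0.62 ± 0.07 (adjusted p = 6.7e-07), and to 0.01 (adjusted p = 0.957) with the trend also removed. The direction of the Nr3c1 sum thus rests on which gene name the strongest region was given.

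Other known glucocorticoid target genes, from a list of 18, were lower in 12 of the 16 tested and higher in 0 (limma, 0 also at an unadjusted p under 0.05 and with voom; median change -0.70), where 36.1% of all tested genes were lower and 20.5% higher. With the trend removed 10 were lower and 2 higher (median -0.25; all genes 15.5% and 20.7%), and on the background scale all 16 were lower (all genes 75.4%). The list was chosen with results of these data known. Per1, a clock gene with strong glucocorticoid response elements, summed to 444 and 454 RPM in Gel and 227 and 247 RPM in CuNZ@Gel and fell by 0.92 ± 0.04 (adjusted p = 3.34e-12; trend-removed -0.27). Zfp36, which encodes an mRNA-destabilising protein, summed to 448 and 419 RPM in Gel and 223 and 247 RPM in CuNZ@Gel and fell by 0.88 ± 0.05 (adjusted p = 2.23e-11; trend-removed -0.11).

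Nfkbia, which encodes the NF-κB inhibitor IκBα, summed to 269 and 274 RPM in Gel and 197 and 229.7 RPM in CuNZ@Gel. It was lower by 0.35 ± 0.05 (adjusted p = 1.81e-05) on the deposited scale but higher by 0.20 (adjusted p = 0.00172) with the trend removed. Cd163 and Lcn2 of this list were not tested. Of 8 chaperone genes of the receptor 7 were tested, and all 7 were lower (median -0.76; all genes 36.1%). With the trend removed limma called 0 in either direction (all genes 15.5% lower and 20.7% higher). At an unadjusted p under 0.05 it had 2 lower and 0 higher. Hspa8, Hsp90aa1 and Hsp90b1 were the strongest of them, with changes of -0.95, -0.68 and -0.76 and trend-removed changes of -0.07, -0.12 and 0.05. The trend-removed change of the Tsc22d3 sum was -0.74, but the difference from these genes was not tested.

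The sequences upstream of Tsc22d3 and Fkbp5 are shown because these genes are textbook targets of the receptor and because the Tsc22d3 sum kept its fall once the level trend was removed while the Fkbp5 sum did not, a difference that was not tested. Each is the 250 bases before an annotated start in the RefSeq table for GRCm38.p6, read in the direction of the gene, with capitals for the motifs found. Tsc22d3 has 3 such starts, on the minus strand at chrX:140600523-140600772, chrX:140548572-140548821 and chrX:140542669-140542918. The Fkbp5 window lies on the minus strand at chr17:28486150-28486399. These positions are of an older build than the region coordinates, so which region covers which start is not given here.
Tsc22d3 start 1: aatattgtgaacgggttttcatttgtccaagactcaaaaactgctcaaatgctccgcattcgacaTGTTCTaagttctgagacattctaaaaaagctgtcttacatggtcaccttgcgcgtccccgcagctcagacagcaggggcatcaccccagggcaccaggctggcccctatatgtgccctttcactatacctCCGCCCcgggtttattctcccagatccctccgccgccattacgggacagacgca
Tsc22d3 start 2: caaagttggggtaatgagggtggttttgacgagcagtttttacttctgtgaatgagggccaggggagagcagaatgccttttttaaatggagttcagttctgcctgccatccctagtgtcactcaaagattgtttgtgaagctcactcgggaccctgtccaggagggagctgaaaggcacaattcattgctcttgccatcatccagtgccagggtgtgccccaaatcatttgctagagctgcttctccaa
Tsc22d3 start 3: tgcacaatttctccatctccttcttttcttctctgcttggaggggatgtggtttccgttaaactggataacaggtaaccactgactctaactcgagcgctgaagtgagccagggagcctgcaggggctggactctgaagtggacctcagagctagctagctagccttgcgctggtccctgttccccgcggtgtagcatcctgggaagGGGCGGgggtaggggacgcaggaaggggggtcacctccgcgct
Fkbp5: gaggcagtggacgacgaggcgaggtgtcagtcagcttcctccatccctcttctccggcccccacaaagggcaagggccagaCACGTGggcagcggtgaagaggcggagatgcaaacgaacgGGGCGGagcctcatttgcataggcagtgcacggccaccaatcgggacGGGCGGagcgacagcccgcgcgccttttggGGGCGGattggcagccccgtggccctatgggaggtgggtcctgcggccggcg

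In Tsc22d3 start 1 the capitals mark a glucocorticoid receptor hexamer, TGTTCT, the reverse complement of AGAACA, from 185 to 180 bases upstream, and a GC box (GGGCGG or its reverse complement CCGCCC). Start 2 held none of the motifs searched. Start 3 held a GC box, and Fkbp5 an E-box (CACGTG) and 3 GC boxes. Motifs were searched on both strands in all 32851 windows of this length. AGAACA was in 16.1% of them and in 1 of the 16 windows of the member genes. The full palindrome GNACANNNTGTNC was in 0.387% of all windows and in no member window. The GC box was in 32.7% of all windows and in 11 of the 16, while CACGTG was in 6.02% and in 2 of the 16. G and C made up 52.4%, 49.2% and 58.4% of the Tsc22d3 windows and 68.0% of the Fkbp5 window, against a median of 52.4%. A match is only a run of letters, and a window without one says nothing about binding elsewhere. The table has windows for 8 of the 10 member genes. Windows of 1 gene are not independent: those of Rara starts 1 and 2 overlap and hold the same 4 GC boxes.

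Ppard encodes PPARδ, a fatty acid receptor tied to fat burning and to alternative macrophage activation. Its 9 regions on chromosome 17 summed to 250.2 and 256 RPM in Gel and to 216 and 218 RPM in CuNZ@Gel. The groups did not overlap. The sum fell by 0.22 ± 0.04 (adjusted p = 0.000183) on the deposited scale. It turned to 0.21 (adjusted p = 0.000263) with the trend removed, to 0.065 (adjusted p = 0.188) scaled to total reads, and to -1.27 on the background scale. Within the locus 5 regions were lower and 2 higher.

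Region 3 (chr17:28451272-28452794), at 1523 bases the widest member region, was the strongest. It had 86.1 and 89.1 RPM in Gel and 48.7 and 50.2 RPM in CuNZ@Gel. It fell by 0.81 ± 0.08 (adjusted p = 4.24e-12), and by 0.21 (adjusted p = 0.0401) with the trend removed.

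Region 4 (chr17:28455667-28455890), 224 bases wide and next to region 3, had the largest rise of any member region. It held 0.758 and 0.928 RPM in Gel and 6.31 and 6.84 RPM in CuNZ@Gel, from 13, 15, 52 and 77 reads. The Gel libraries had more reads in all regions but a lower background density, and this region held fewer of their reads. It rose by 2.04 ± 0.26 (adjusted p = 4.17e-09; trend-removed 1.84; background-scaled 1.33, adjusted p = 2.39e-05). A peak was called in CuNZ@Gel replicate 2 alone, with a deposited fold of 3.31.

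Region 8 (chr17:28499220-28500100; chosen after its values were seen) was the one strong member region called higher. It had 47.1 and 48.6 RPM in Gel and 71.8 and 68.6 RPM in CuNZ@Gel, from 807, 785, 592 and 772 reads. It rose by 0.54 ± 0.08 (adjusted p = 3.91e-07), and by 1.11 (adjusted p = 7.99e-22) after trend removal. On the background scale its change was -0.50 (adjusted p = 0.0975). Its peak was called in all 4 libraries, with folds of 11.9, 11.7, 9.45 and 10.1.

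The other called Ppard regions were lower. Regions 1, 6 and 9, at 18.2 to 33.7 RPM, had changes of -0.43, -0.52 and -0.30 (adjusted p = 0.00214, 0.000371 and 0.0207), and none passed with the trend removed (-0.14, -0.24 and 0.042). Region 2, at 7.64 to 14.5 RPM, had -0.59 ± 0.16 (adjusted p = 0.0029) and kept its call (-0.56, adjusted p = 0.00491), but lost the deposited-scale call without Gel replicate 1 (-0.48, adjusted p = 0.108). Regions 5 and 7 did not pass, at 0.27 and 0.17. Between regions 7 and 8 lie 3 regions named 1810013A23Rik. The stronger ones had 74.7, 76.0, 50.9 and 46.0 RPM and 134, 135, 75.6 and 83.9 RPM over the 2 Gel and then the 2 CuNZ@Gel libraries, and both fell, by 0.63 and 0.75. With the 3 regions added the Ppard sum had a change of -0.41 ± 0.03, and of 0.12 (adjusted p = 0.005) with the trend removed.

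The Ppard window is shown because the locus held both the largest rise and one of the strongest falling regions, so the start itself is of interest. It lies on the plus strand at chr17:28232504-28232753 (RefSeq, GRCm38.p6).
Ppard: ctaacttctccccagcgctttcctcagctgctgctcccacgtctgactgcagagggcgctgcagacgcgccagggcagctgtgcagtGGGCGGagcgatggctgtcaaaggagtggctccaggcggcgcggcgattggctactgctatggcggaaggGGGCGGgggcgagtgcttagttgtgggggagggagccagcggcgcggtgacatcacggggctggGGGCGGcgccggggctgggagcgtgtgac

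The capitals mark 3 GC boxes, the nearest from 29 to 24 bases upstream, and G and C made up 69.6% of the window. No AGGTCA hexamer was in it. That hexamer was in 14.0% of all windows and in 3 of the 16 member windows, those of Pparg starts 1 and 2 and Rxra start 2. The direct repeats of it with 1 spacer base (AGGTCANAGGTCA, 0.0335% of windows) and 5 spacer bases (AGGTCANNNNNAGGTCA, 0.00913%) contain the hexamer and were in no member window. No member window held a cAMP response element (TGACGTCA, 1.55%) or an AP-1 site (TGANTCA, 6.75%), and 1, Pparg start 2, held TATAAA (12.4%).

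Pparg encodes PPARγ, the fat cell regulator that in macrophages drives lipid uptake genes. Its 7 regions on chromosome 6 summed to 47.4 and 48.6 RPM in Gel and to 51.3 and 44.6 RPM in CuNZ@Gel. The groups overlapped, and the change of -0.00 ± 0.09 did not pass (adjusted p = 0.976). With the trend removed it was -0.01 (adjusted p = 0.922), but with total reads the sum was called higher (0.28, adjusted p = 0.0138) and on the background scale lower (-1.04, adjusted p = 0.000195). The sum joined regions that went both ways.

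Region 1 (chr6:115320014-115321183), the strongest, had 16.3 and 17.6 RPM in Gel and 13.8 and 10.8 RPM in CuNZ@Gel. It fell by 0.44 ± 0.15 (adjusted p = 0.0131). The call was lost with the trend removed (-0.33, adjusted p = 0.0809) and without Gel replicate 1 (-0.49, adjusted p = 0.0538), Gel replicate 2 (-0.39, adjusted p = 0.156) or CuNZ@Gel replicate 2 (-0.27, adjusted p = 0.135). Region 3 likewise fell by 0.42 ± 0.16 (adjusted p = 0.0308) and lost its call with the trend removed (-0.39, adjusted p = 0.0581), and without Gel replicate 1 (-0.53, adjusted p = 0.0603), Gel replicate 2 (-0.31, adjusted p = 0.338) or CuNZ@Gel replicate 2 (-0.31, adjusted p = 0.148). Both changes stayed below 0 in these fits.

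Region 5 (chr6:115416559-115416810) had 1.05 and 0.742 RPM in Gel and 2.42 and 2.76 RPM in CuNZ@Gel, from 18, 12, 20 and 31 reads. This region was defined only through a peak in CuNZ@Gel replicate 2, a choice that favours a rise there. It rose by 0.92 ± 0.30 (adjusted p = 0.00896), but not with the trend removed (0.64, adjusted p = 0.0954) or without Gel replicate 2 (0.81, adjusted p = 0.117). Region 6 (chr6:115439754-115440475; chosen after its values were seen) was more strongly accessible, with 8.92 and 8.17 RPM in Gel and 13.5 and 12.8 RPM in CuNZ@Gel. It rose by 0.57 ± 0.16 (adjusted p = 0.00351; trend-removed 0.59, adjusted p = 0.00272). On the background scale its change was -0.40, and without Gel replicate 2 it was 0.51 (adjusted p = 0.0662). Region 7, with peaks in both Gel libraries only, had 2.33 and 2.60 RPM in Gel and 3.03 and 1.78 RPM in CuNZ@Gel, and its groups overlapped. Regions 2 and 4 did not pass, at 0.43 and 0.21.

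The coactivators of PPARs, PGC-1α (Ppargc1a) and PGC-1β (Ppargc1b), promote mitochondrial and fatty acid oxidation genes. The 9 Ppargc1a regions, over 568 kb of chromosome 5, summed to 19.2 and 17.0 RPM in Gel and to 20.7 and 20.3 RPM in CuNZ@Gel. The groups did not overlap, yet the change of 0.17 ± 0.13 did not pass (adjusted p = 0.256; trend-removed -0.04). It was called higher with total reads (0.44, adjusted p = 0.00599) and lower on the background scale (-0.83, adjusted p = 0.00137).

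Its region 8 (chr5:52273125-52273677), the strongest, had 9.74 and 8.36 RPM in Gel and 6.55 and 3.47 RPM in CuNZ@Gel and fell by 0.79 ± 0.21 (adjusted p = 0.00157; trend-removed -0.86). The call was lost without Gel replicate 1 (-0.69, adjusted p = 0.0524) and without CuNZ@Gel replicate 2 (-0.41, adjusted p = 0.0970). Region 4 (chr5:51869416-51869889) had 1.63 and 1.67 RPM in Gel and 3.88 and 4.62 RPM in CuNZ@Gel, from 28, 27, 32 and 52 reads. It rose by 0.98 ± 0.26 (adjusted p = 0.0015; trend-removed 0.79, adjusted p = 0.0137; background-scaled 0.22, adjusted p = 0.499). Region 7, with peaks in both Gel libraries only, had overlapping levels of 1.82 to 2.84 RPM. The other tested regions, 2, 3 and 9, had changes of 0.51, 0.56 and 0.32 and did not pass.

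The 3 Ppargc1b regions on chromosome 18 summed to 27.2 and 24.9 RPM in Gel and to 25.6 and 19.6 RPM in CuNZ@Gel. The groups overlapped and the change of -0.21 ± 0.13 did not pass (adjusted p = 0.173). Without CuNZ@Gel replicate 1 it was -0.39. On the background scale the Ppargc1b sum was called lower (-1.22, adjusted p = 3.66e-06). Region 1 (chr18:61534789-61535032) had 20.6 and 18.0 RPM in Gel and 14.8 and 12.2 RPM in CuNZ@Gel and fell by 0.49 ± 0.14 (adjusted p = 0.00376). It lost the call with the trend removed (-0.34, adjusted p = 0.0549) and without Gel replicate 1 (-0.40, adjusted p = 0.122). Region 2, with peaks in both Gel libraries only, had overlapping levels of 2.49 to 4.49 RPM, and region 3 a change of 0.52 ± 0.22 (adjusted p = 0.0551).

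All 16 listed PPAR and fatty acid targets were tested; 9 passed as lower and 2 as higher (median -0.41), beside 36.1% and 20.5% of all genes. With the trend removed 3 were lower and 3 higher (median -0.02; all genes 15.5% and 20.7%), and on the background scale 15 were lower (all genes 75.4%). The strongest were Acsl1 (fatty acid activation), Ucp2 (a mitochondrial carrier) and Cpt1a (fatty acid import into mitochondria). Acsl1 summed to 177 and 179.6 RPM in Gel and 119.7 and 122 RPM in CuNZ@Gel, a fall of 0.56 ± 0.05 (adjusted p = 2.08e-08). Ucp2 and Cpt1a fell by 0.53 and 0.65, and the trend-removed changes of the 3 genes were 0.02, -0.05 and -0.05.

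RXRα, encoded by Rxra, is the shared partner of these receptors. Its 10 regions over 119 kb of chromosome 2 summed to 67.9 and 66.0 RPM in Gel and to 90.8 and 79.5 RPM in CuNZ@Gel. Both CuNZ@Gel sums lay above both Gel sums. The sum rose by 0.34 ± 0.07 (adjusted p = 0.00064; trend-removed 0.43, adjusted p = 5.12e-05), but its background-scaled change was -0.71 (adjusted p = 0.0147). Its 3 called regions were all higher.

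Region 1 (chr2:27543675-27544094) was the single member region with peaks in both CuNZ@Gel libraries and neither Gel library, with deposited folds of 6.32 and 5.03. It had 1.17 and 0.805 RPM in Gel and 6.19 and 3.82 RPM in CuNZ@Gel, from 20, 13, 51 and 43 reads. Gel libraries had more reads in all regions but a lower background density, and this region held fewer of their reads. It rose by 1.57 ± 0.27 (adjusted p = 4.15e-06; trend-removed 1.36; background-scaled 0.86, adjusted p = 0.00823).

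Region 3 (chr2:27577825-27578318; chosen after its values were seen, as was region 5) had 8.98 and 5.26 RPM in Gel and 17.0 and 14.7 RPM in CuNZ@Gel and rose by 1.09 ± 0.18 (adjusted p = 1.18e-06; trend-removed 1.11). On the background scale its change was 0.12 (adjusted p = 0.686). Region 5 had 3.21 and 5.76 RPM in Gel and 8.97 and 9.60 RPM in CuNZ@Gel and rose by 0.95 ± 0.21 (adjusted p = 0.000158), with 0.61 (adjusted p = 0.0553) without Gel replicate 1 and 0.04 (adjusted p = 0.898) on the background scale. The strongest region, 7 (chr2:27629970-27630894), had 32.1 and 29.5 RPM in Gel and 30.8 and 31.1 RPM in CuNZ@Gel. Its groups overlapped and its change was 0.01 ± 0.11 (adjusted p = 0.964), but 0.37 (adjusted p = 0.0052) with the trend removed and -1.02 on the background scale. Region 6, with peaks in both Gel libraries only, had overlapping levels of 3.02 to 4.61 RPM. Regions 2, 4, 8, 9 and 10 had changes of -0.29 to 0.53 and did not pass.

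The Rxra windows show how unlike 2 starts of this gene are. They lie on the plus strand at chr2:27676951-27677200 and chr2:27709042-27709291 (RefSeq, GRCm38.p6).
Rxra start 1: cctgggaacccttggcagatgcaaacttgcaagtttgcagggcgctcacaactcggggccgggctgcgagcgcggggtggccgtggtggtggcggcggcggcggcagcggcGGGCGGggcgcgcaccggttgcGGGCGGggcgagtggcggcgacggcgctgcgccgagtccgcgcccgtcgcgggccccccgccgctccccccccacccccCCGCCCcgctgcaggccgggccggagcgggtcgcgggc
Rxra start 2: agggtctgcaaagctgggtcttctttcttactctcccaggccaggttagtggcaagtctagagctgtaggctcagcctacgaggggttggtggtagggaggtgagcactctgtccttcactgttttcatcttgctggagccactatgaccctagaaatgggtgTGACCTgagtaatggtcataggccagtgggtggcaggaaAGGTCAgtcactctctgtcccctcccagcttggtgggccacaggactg

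Start 1 holds 3 GC boxes, in capitals, and G and C make up 81.2% of it. Start 2 holds no GC box, has 55.2% G and C, and carries the nuclear receptor hexamer at 87 to 82 bases upstream (as TGACCT) and at 48 to 43 bases upstream (as AGGTCA). Whether either window lay in one of the measured regions was not tested.

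Rara encodes RARα, a retinoic acid receptor. Its 9 regions on chromosome 11 summed to 197 and 198 RPM in Gel and to 162 and 153 RPM in CuNZ@Gel. The groups did not overlap, and the sum fell by 0.33 ± 0.05 (adjusted p = 1.14e-05). The change was 0.045 (adjusted p = 0.499) with the trend removed and -0.04 (adjusted p = 0.491) scaled to total reads. On the background scale the sum was lower, at -1.38 (adjusted p = 3.71e-06).

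Region 8 (chr11:98850181-98851474) had 71.0 and 75.0 RPM in Gel and 48.9 and 47.3 RPM in CuNZ@Gel and fell by 0.59 ± 0.08 (adjusted p = 5.35e-08; trend-removed -0.02). Region 3 (chosen after its values were seen) had 42.2 and 40.8 RPM in Gel and 28.9 and 25.7 RPM in CuNZ@Gel and fell by 0.59 ± 0.10 (adjusted p = 6.04e-06; trend-removed -0.20, adjusted p = 0.137). Region 2 (also chosen after its values were seen), of like level, had 41.8 and 43.0 RPM in Gel and 45.2 and 40.2 RPM in CuNZ@Gel. Its groups overlapped (0.01 ± 0.10, adjusted p = 0.951), with the trend removed it was higher, by 0.47 (adjusted p = 3.67e-05), and on the background scale lower, at -1.02 (adjusted p = 0.000379). Regions 1 and 7, with peaks in both Gel libraries only, had overlapping levels of 5.51 to 9.70 and 3.28 to 5.48 RPM. The other 4 regions had changes of -0.29 to 0.05 and did not pass. A region named Gm46294 (chr11:98832489-98834675), which lies between Rara regions, had 112 and 115 RPM in Gel and 76.2 and 84.9 RPM in CuNZ@Gel and fell by 0.49 ± 0.07 (adjusted p = 8.06e-08; trend-removed 0.24, adjusted p = 0.006).

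From a list of 15 other genes of the retinoid pathway 11 could be tested. Of these 5 passed as lower and 2 as higher (median -0.00), beside 36.1% and 20.5% of all genes. Trend removal left 1 in each direction (all genes 15.5% lower and 20.7% higher). On the background scale 10 were lower and 0 higher (0 higher also at an unadjusted p under 0.05 by limma), beside 75.4% and 2.76% of all genes. Rarb, Dhrs3 (a retinal reductase) and Tgm2 (a retinoic acid-induced transglutaminase) were the strongest and lower by 0.28, 0.57 and 0.30, with trend-removed changes of -0.01, -0.10 and 0.03. The 3 Aldh1a genes, which make retinoic acid, were not tested.

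Vdr, the vitamin D receptor gene, had 2 regions on chromosome 15. They summed to 14.8 and 16.1 RPM in Gel and to 19.6 and 19.8 RPM in CuNZ@Gel. The groups did not overlap, and the sum rose by 0.33 ± 0.13 (adjusted p = 0.0334; trend-removed 0.38; background-scaled -0.67). This call was lost without each library in turn, with adjusted p from 0.0670 to 0.221 and changes of 0.28 to 0.39. Region 1 (chr15:97805143-97806320) had 11.8 and 12.2 RPM in Gel and 16.2 and 16.1 RPM in CuNZ@Gel and rose by 0.40 ± 0.15 (adjusted p = 0.0226; trend-removed 0.50, adjusted p = 0.00471). It lost the call without Gel replicate 1 (0.38, adjusted p = 0.147) or Gel replicate 2 (0.42, adjusted p = 0.107), and its background-scaled change was -0.59. Region 2 had overlapping groups at 2.98 to 3.90 RPM.

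In the vitamin D pathway 7 of 8 listed genes were tested, with 2 lower and 1 higher (median 0.25), beside 36.1% and 20.5% of all genes. After trend removal 1 was lower and 1 higher (all genes 15.5% and 20.7%). On the background scale 4 were lower and 0 higher (limma, 0 higher also at an unadjusted p under 0.05), beside 75.4% and 2.76% of all genes. Cyp24a1, the hydroxylase that inactivates vitamin D, summed to 12.5 and 11.6 RPM in Gel and 7.64 and 7.91 RPM in CuNZ@Gel and fell by 0.57 ± 0.16 (adjusted p = 0.00533; trend-removed -0.68, adjusted p = 0.00217). Spp1 (osteopontin) fell by 0.17 (adjusted p = 0.0253; trend-removed 0.15), and Cyp27b1, which activates vitamin D, had 0.25 (adjusted p = 0.220).

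Of 26 tested receptors outside the 10 genes, 13 passed as lower and 3 as higher (median -0.33), and with voom 13 and 1, beside 36.1% and 20.5% of all genes by limma. After trend removal 6 were lower and 4 higher (all genes 15.5% and 20.7%). On the background scale 22 were lower and 0 higher (limma, 0 higher also at an unadjusted p under 0.05), beside 75.4% and 2.76% of all genes. Nr4a3 and Nr4a1, immediate-early orphan receptors, fell by 1.14 (adjusted p = 1.08e-12) and 1.00 (adjusted p = 1.1e-11), and stayed lower with the trend removed, by -0.50 and -0.52. Nr1d2 (REV-ERBβ) fell by 0.52 but was higher by 0.27 (adjusted p = 0.000117) with the trend removed. Among 19 coactivators and corepressors, which include both Ppargc1 genes, 13 were lower and 0 higher (limma, 0 also at an unadjusted p under 0.05 and with voom; median -0.27), again beside 36.1% and 20.5% of all genes. Trend removal left 4 lower and 1 higher (all genes 15.5% and 20.7%), and on the background scale all 19 were lower (all genes 75.4%). Ncoa2 and Kat2b fell by 0.27 and 0.26, with trend-removed changes of 0.02 and -0.07.

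**Figure D5:**
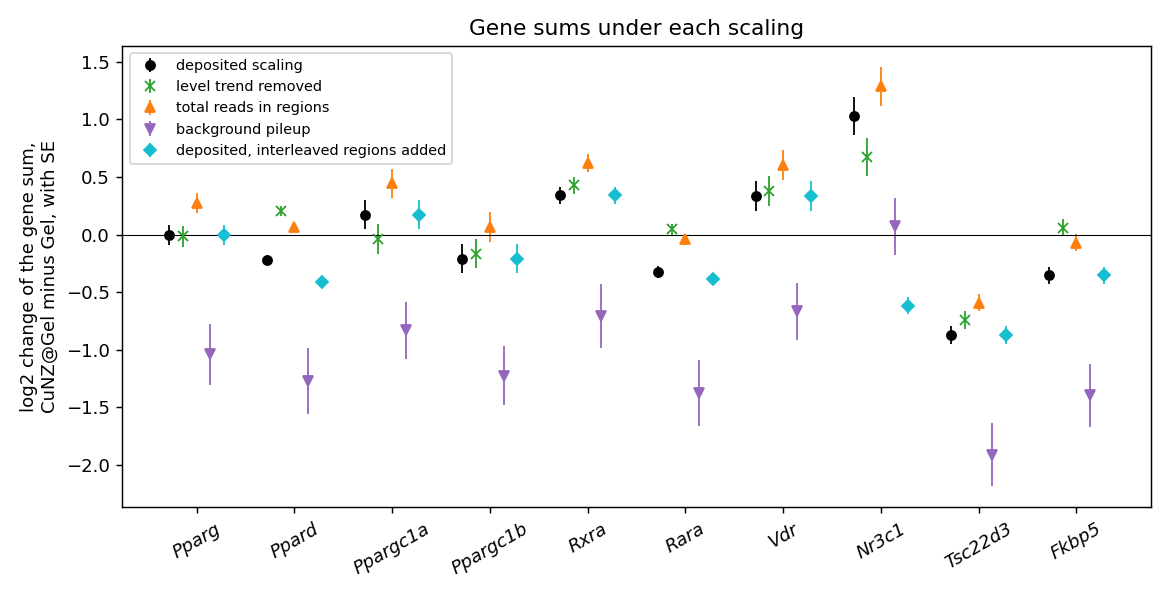
Change of each member gene's sum (y axis, log2 change of CuNZ@Gel minus Gel, bars 1 SE) under the deposited scaling, 3 other scalings, and with regions of other names between the gene's regions added. Tsc22d3 lies below 0 under the deposited and the 3 other scalings. It had no regions to add, so its added-region point repeats the deposited one. Nr3c1 is at 1.03 with the deposited scaling and at -0.62 with the added region. Ppard, Ppargc1a, Rara and Fkbp5 change sign with the trend removed.

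Peaks, called on each library alone, were less often present in the shallower libraries. Of the 67 member regions 50 and 49 had a peak in the Gel libraries and 35 and 46 in the CuNZ@Gel libraries. A peak in all 4 was found in 26 (38.8%, against 39.6% of all regions), in both Gel libraries only in 7 (10.4% against 11.0%), and in both CuNZ@Gel libraries only in 1 (1.49% against 2.28%). In 18 regions (26.9%) a peak was called in 1 library. Of the 7 regions with peaks in both Gel libraries only, 0 were called lower by limma on the deposited scale (all regions 21.8%). At an unadjusted p under 0.05 there were also 0. On the background scale 6 were called lower (all regions 60.5%). Choosing regions by peaks in Gel only favours a fall in CuNZ@Gel. The 7 regions were Pparg region 7, Ppargc1a region 7, Ppargc1b region 2, Rxra region 6, Rara regions 1 and 7 and Fkbp5 region 3.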

How the data were processed

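ATAC-seq was deposited for 4 RAW264.7 libraries, 2 titled Gel and 2 CuNZ@Gel. Per the submitters' processing notes, the tools were MACS2 2.2.8, Picard 2.27.5, SAMtools 1.17, Bowtie2 2.3.4.3 and fastp 0.23.1, with build GRCm39, without roles or order. The authors deposited log2 values per library for 80929 regions named by nearest gene, per the file headers. They were read as log2(RPM + 1), because reversing the logarithm put 100% of low values within 0.1 of a whole read in every library. The implied scaling factors were 0.910, 0.902, 1.11 and 1.10. The authors also deposited peak lists per library with a fold enrichment (ratio), -log10 p and q, and an integer score made from the q-value.

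The value tables hold no coordinates. Peaks of the 4 lists overlapping or at most 1 base apart were merged into regions, which gave 80929 in the order of the tables. Of 77103 regions whose gene is in the RefSeq gene table, 77101 lay on its chromosome. No GRCm39 annotation was used, so exons, introns and promoters were not assigned. Both groups were compared with limma 3.58.1 (R 4.3.3, trend, two-sided, Benjamini-Hochberg over all features, pseudocount 1, threshold 0.05), after a test on simulated data. Gene values were log2(summed RPM + 1). Because the deposited unit is log2, edgeR and DESeq2 were not used; limma's voom on the recovered reads was an alternative. The errors given are limma's standard errors and cover only the spread between libraries.

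Members and lists were chosen with earlier results of these data known. For each member the text gives its strongest region, its largest called rise and fall and its regions with peaks in both libraries of 1 group only, and the 3 strongest tested genes of each list, of which 1 is not reported here; other regions are said to be chosen afterwards. No genes of like pattern are named, since 4 libraries cannot rank likeness. Whether libraries of the same replicate number were handled together is not stated, and the main fit did not pair them.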

Additional observations from a re-analysis of the deposited data

How the results depend on the processing

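Median-of-ratios scaling, no filter on low values, pseudocount 0.5 and voom on recovered reads changed no call among the 46 gene sums and single regions printed, and neither did a filter of at least 5 RPM among the 30 that it kept. With the replicate number as a block 13 member regions were higher and 16 lower, and 3 and 4 gene sums; over all features 16676 and 17258 regions and 5594 and 9669 genes were called. The block changed no call among the 46. Deviations of same-numbered libraries correlated at 0.02 over regions and 0.04 over genes. These values cannot show that there was no pairing, but the numbers are not taken as one.

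Scaling moved the counts. Higher member regions numbered 22 with total reads, 3 with background and 4 with the filter at 5 RPM; lower ones 7 with the trend removed, 8 with total reads and 36 with background. Higher gene sums numbered 5 with total reads and 0 with background (limma, 0 also at an unadjusted p under 0.05), and lower ones 1, 1 and 9 with the trend removed, total reads and background, and 1 with added regions and the trend removed. All regions called higher were 3726 (background) and 4313 (filter at 5 RPM), and lower 10619, 9151 and 46678 (trend removed, total reads, background). All genes called higher were 8888, 716 and 3142 (total reads, background, filter at 5 RPM), and lower 4017, 4840 and 19550. With a peak required to cover 50% of a region, 12 member regions had one in all 4 libraries and 2 in both CuNZ@Gel libraries only. With each library left out in turn, member regions called higher were 9 to 14 and lower 10 to 17 (10 without Gel replicate 1), gene sums 2 to 2 and 4 to 5, all regions 11482 to 14966 and 12090 to 16635, and all genes 4034 to 5011 and 7755 to 8985.

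Among the 46, signs turned at these values where the change was called under at least 1 of the settings compared. With total reads Pparg was 0.28 and Ppard 0.065; with the trend removed Ppard was 0.21, Rara 0.045, Fkbp5 0.058 and Ppard region 9 0.042; with added regions Nr3c1 was -0.62, and with the trend also removed Ppard was 0.12, Rara 0.11 and Fkbp5 0.058. With background Ppargc1a was -0.83, Rxra -0.71, Vdr -0.67, Pparg region 6 -0.40, Ppard region 8 -0.50, Ppargc1b region 2 -0.73, Rxra region 6 -0.73, Rxra region 7 -1.02, Rara region 1 -0.62, Vdr region 1 -0.59 and Nr3c1 region 1 -0.011. Signs of changes called under neither setting also turned, among them the Ppargc1a sum with the trend removed (-0.04), the Ppargc1b sum with total reads (0.065) and Fkbp5 region 3 with background (-0.32). Outside the 46, Rara region 2 was -1.02 with background. The cause was not tested.

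The background scale rests on a pileup that is weakly determined. The search used only the lower deposited folds, and all shares given are of these. In Gel replicate 2 the chosen pileup made 36.0% of them whole and the next best 35.7%. In CuNZ@Gel replicates 1 and 2 it made only 10.6% and 12.9% whole, with the next best at 6.08% and 7.06%. In Gel replicate 1 it made 40.9% whole and the next best 22.3%. Depth limits the weak regions: Nr3c1 regions 2, 3 and 5 had 5 to 27 reads a library.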
